A study of Bos taurus with 12 samples.

Results

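The genes described here encode the tissue inhibitors of metalloproteinases (TIMP1, TIMP2, TIMP3 and TIMP4) and 5 matrix metalloproteinases (MMP2, MMP9, MMP14, MMP15 and MMP19), measured in the liver of dairy cows. They are 9 of the 18010 different gene symbols that could be named on the array. A gene was read from a transcript annotated with exactly 1 symbol and, where a gene had several such transcripts, from the one with the highest mean over all 12 arrays. The genes were chosen from their measured values on these 12 arrays, including single animals that lay far from their group, so their levels and group differences are a description and carry no test. Of the 9 genes, only TIMP2 had 2 such transcripts. All 9 gene IDs were found in the RefSeq gene table for cattle.

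Liver was taken by biopsy from 12 female Holstein cows in week 1 postpartum (day 7), when cows are in early lactation. The control group (n = 6) received a total mixed ration with 1% wheat bran of dry matter, and the GSGME group (n = 6) received the same basal ration with 1% grape seed and grape marc meal extract, a flavonoid-rich by-product of wine and juice making. Feeding began in the weeks before calving, and each group held 1 primiparous cow, which the labels do not identify. Each cow gave 1 RNA sample and 1 Affymetrix Bovine Gene 1.0 ST array, so that the error given is the spread between cows, and each cow is called by its label, which holds its group and its animal number.

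Matrix metalloproteinases are zinc-dependent endopeptidases that are made as inactive zymogens and cut collagens, other matrix proteins, and cytokines or receptors at the cell surface. TIMPs bind their active site and block them. MMP14 sits in the plasma membrane and, together with TIMP2, activates the zymogen of MMP2, and TIMP1 binds the zymogen of MMP9. In liver, stellate cells, Kupffer cells, endothelial cells and invading neutrophils are known as sources of these proteins, and the balance of proteases and inhibitors is known for its part in the build-up and removal of scar matrix.

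The deposited values are log2 signals, on which a difference of 1 is a doubling. The value table held 26773 transcripts, of which 18457 carried 1 symbol, 688 several and 7628 none. Array medians lay between 6.02 and 6.17, and correlations between arrays lay between 0.968 and 0.990. Hepatocyte markers (16 of 16 measured) averaged 12.40 to 12.56 in control cows and 12.47 to 12.61 in GSGME cows, far above the median transcript at 6.07. Olfactory receptor genes, which have no known use in liver, gave a median of 3.67 over 717 transcripts, with a 5th to 95th percentile of 2.66 to 5.62. The means of TIMP4 and MMP9 lay within that range, and those of the other 7 genes lay above the median transcript. The array of Liver_control_825 correlated least with its own group (mean r = 0.975) and was alone the highest in 21.8% of transcripts, against 3.82% to 10.4% for the other cows. The array of Liver_GSGME_821, to which much of what follows refers, had a mean correlation of 0.985 with its group, where the other GSGME arrays had 0.987 to 0.988. Because the tissue was measured in bulk, fewer cells of a type and less RNA per cell cannot be told apart.

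Liver_GSGME_821 had the highest signal of all 12 cows for 6 of the 9 genes, namely TIMP1, TIMP2, MMP2, MMP14, MMP15 and MMP19. Over all transcripts, this cow was alone the highest in 6.50%, but the 9 genes were chosen with these values in view and nothing is read from their count. Liver_GSGME_741 was highest for TIMP3 and MMP9, and Liver_control_1150 for TIMP4. In the transcripts used, the groups overlapped for all 9 genes, and no group difference was larger than the pooled SD of its gene. In the dimmer TIMP2 transcript that was not used, the difference of -0.29 was larger than its pooled SD of 0.21, and the groups overlapped.

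**Figure D1:**
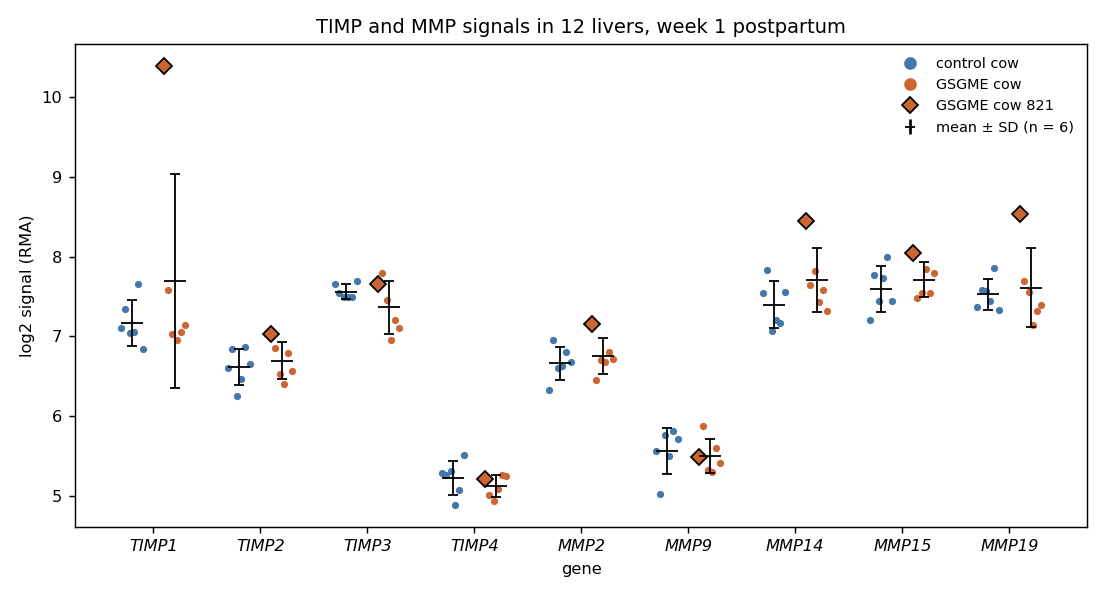
Log2 signal of each of the 9 genes (x axis, 1 column pair per gene) in 6 control and 6 GSGME cows, with 1 point per cow, the group mean and its SD, and Liver_GSGME_821 drawn as a diamond. The diamond for TIMP1 stands at 10.39, while the other 11 cows lie between 6.84 and 7.66.

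TIMP1 (array transcript 12902909), the secreted inhibitor that is induced by inflammatory cytokines, showed the widest spread of the 9 genes. In the GSGME group the log2 signal was 10.39 in Liver_GSGME_821, 7.58 in Liver_GSGME_741, 7.03 in Liver_GSGME_1047, 6.96 in Liver_GSGME_1143, 7.06 in Liver_GSGME_1124 and 7.14 in Liver_GSGME_1001. In the control group it was 7.10 in Liver_control_1017, 7.34 in Liver_control_819, 7.04 in Liver_control_825, 7.06 in Liver_control_1041, 7.66 in Liver_control_1031 and 6.84 in Liver_control_1150. Liver_GSGME_821 thus stood above every other animal, whereas the other 5 GSGME cows lay within the control range. Its TIMP1 signal exceeded the mean of those 5 cows by 3.24 on the log2 scale, which is a 9.42-fold difference. The group means were 7.17 ± 0.29 without GSGME and 7.69 ± 1.34 with it (SD, n = 6 each), a difference of 0.52 (SE 0.48). Without Liver_GSGME_821 the GSGME mean was 7.15 ± 0.25 (SD, n = 5) and the difference was -0.02 (SE 0.15), so that the higher group mean rested on 1 animal. The group medians, 7.08 and 7.10, differed by 0.02. Only 0.041% of all transcripts had a larger SD among the GSGME cows.

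TIMP2 (12760918), the inhibitor that takes part in the activation of MMP2, ran from 6.26 through a median of 6.63 to 6.87 in control cows and from 6.41 through 6.68 to 7.03 in GSGME cows. The lowest value belonged to Liver_control_825 and the highest to Liver_GSGME_821, and the ranges overlapped over most of their length. The means were 6.62 ± 0.23 (SD, n = 6) and 6.70 ± 0.23 (SD, n = 6), a difference of 0.08 (SE 0.13) that became 0.01 without Liver_GSGME_821 and 0.01 without Liver_control_825. The other TIMP2 transcript on the array (12766730) had a mean of 4.91, inside the olfactory receptor range. It lay at 4.74 to 5.51 in control cows and 4.57 to 4.99 in GSGME cows, a difference of -0.29 (SE 0.12), opposite in sign to that of the brighter transcript. All 6 GSGME cows were below the control mean there, and its control maximum belonged to Liver_control_825.

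TIMP3 (12857108) stays bound to the matrix and also blocks ADAM and ADAMTS proteases. The control cows ran from 7.49 through a median of 7.52 to 7.69. In the GSGME group the signal was 6.96 in Liver_GSGME_1143, 7.11 in Liver_GSGME_1001, 7.20 in Liver_GSGME_1124, 7.46 in Liver_GSGME_1047, 7.66 in Liver_GSGME_821 and 7.80 in Liver_GSGME_741. The first 4 of these animals lay below every control cow, while the last lay above every control cow. The control values were close together, with an SD of 0.09 that was smaller than that of 95.4% of transcripts, and the GSGME SD of 0.33 was 3.65 times as large. A larger ratio of the SDs was found for 0.55% of transcripts. The means were 7.56 and 7.37 (n = 6 each), and the difference of -0.20 (SE 0.13) kept its sign with any single cow left out, ranging from -0.28 to -0.12. TIMP3 was the only 1 of the 4 inhibitors in which the GSGME group extended beyond the control range on both sides.

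TIMP4 (12794425), known chiefly from heart, ran from 4.89 to 5.52 in control cows and from 4.94 to 5.27 in GSGME cows, with medians of 5.28 and 5.16. Such levels lie within the olfactory receptor range, and the whole GSGME range fell inside the control range. The means were 5.23 ± 0.22 and 5.13 ± 0.14 (SD, n = 6 each), a difference of -0.10 (SE 0.11).

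MMP2 (12749561) is the gelatinase made mainly by stellate cells and fibroblasts, and it cuts basement membrane collagen and denatured collagen. Its signal ran from 6.33 through a median of 6.66 to 6.95 in control cows and from 6.45 through 6.72 to 7.15 in GSGME cows. Liver_GSGME_821 was highest and Liver_control_1017 lowest. The means, 6.67 ± 0.21 and 6.75 ± 0.23 (SD, n = 6 each), differed by 0.09 (SE 0.12), and by 0.01 without Liver_GSGME_821.

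MMP9 (12713813), the gelatinase stored in neutrophil granules, was dim in all 12 livers. The control cows ran from 5.02 through a median of 5.64 to 5.81 and the GSGME cows from 5.30 through 5.45 to 5.88. Liver_control_819 was the lowest, and the gap between it and the next control cow took 0.61 of the control range. The means were 5.56 ± 0.29 and 5.50 ± 0.22 (SD, n = 6 each), a difference of -0.06 (SE 0.14) that became -0.17 without Liver_control_819 and 0.0007 with cyclic loess scaling between arrays, so that its sign depended on the scaling. Liver_GSGME_821 held no high place here, with 5.49 against a mean of 5.50 in the other 5 GSGME cows.

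MMP14 (12693536), the membrane-type protease that activates MMP2, showed the largest group difference of the 5 proteases. The control cows ran from 7.07 in Liver_control_825 through a median of 7.38 to 7.83 in Liver_control_819. In the GSGME group it was 8.45 in Liver_GSGME_821, 7.82 in Liver_GSGME_1047, 7.65 in Liver_GSGME_741, 7.58 in Liver_GSGME_1124, 7.43 in Liver_GSGME_1143 and 7.32 in Liver_GSGME_1001. Of the 6 GSGME cows, 5 were above the control mean, but only Liver_GSGME_821 was above all control cows. The means were 7.40 ± 0.29 and 7.71 ± 0.40 (SD, n = 6 each), and the difference of 0.31 (SE 0.18) corresponds to a fold change of 1.24. Without Liver_GSGME_821 the difference was 0.16 (SE 0.14), and without Liver_control_819, the second highest of the 12, it was 0.40 (fold change 1.32). Liver_GSGME_821 exceeded the mean of the other 5 GSGME cows by 0.89, which is 1.85-fold.

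MMP15 (12749577), another membrane-type protease, ran from 7.20 through a median of 7.59 to 8.00 in control cows and from 7.48 through 7.68 to 8.04 in GSGME cows. The highest value of each group, in Liver_control_1031 and Liver_GSGME_821, was almost the same. The means, 7.60 ± 0.29 and 7.71 ± 0.22 (SD, n = 6 each), differed by 0.11 (SE 0.14), and by 0.05 without Liver_GSGME_821.

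MMP19 (12860923), a secreted protease of basement membrane and other matrix proteins, was 8.54 in Liver_GSGME_821, 7.70 in Liver_GSGME_741, 7.56 in Liver_GSGME_1047, 7.14 in Liver_GSGME_1143, 7.32 in Liver_GSGME_1124 and 7.39 in Liver_GSGME_1001. The control cows ran from 7.33 through a median of 7.51 to 7.86, with Liver_control_1031 highest. Liver_GSGME_821 was again alone at the top, 1.12 above the mean of the other 5 GSGME cows (2.17-fold), while Liver_GSGME_1143 and Liver_GSGME_1124 were below every control cow. The group means of 7.53 ± 0.19 and 7.61 ± 0.50 (SD, n = 6 each) differed by 0.08 (SE 0.19), and without Liver_GSGME_821 the sign turned to -0.10 (SE 0.12). The difference of the medians was -0.04.

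**Figure D2:**
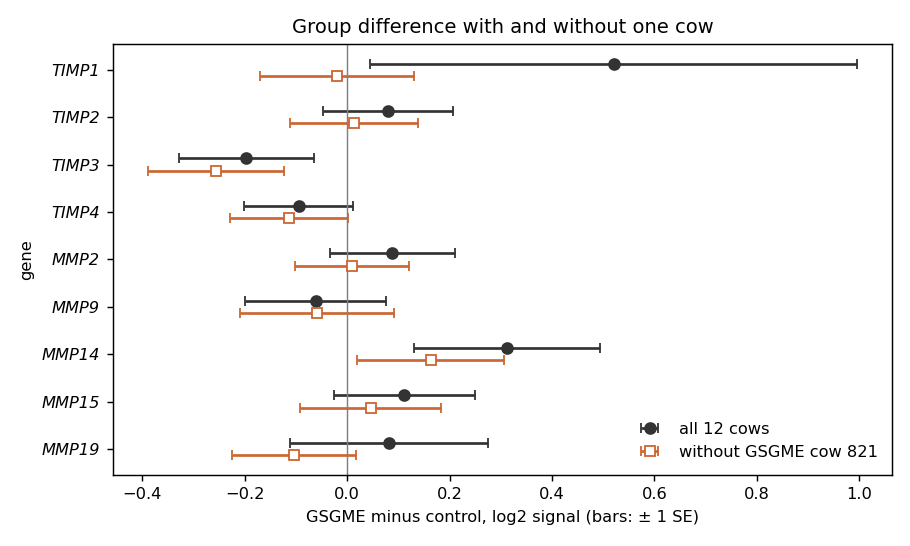
Difference of the group means, GSGME minus control, in log2 signal with its SE for each of the 9 genes, with all 12 cows and without Liver_GSGME_821. Leaving out Liver_GSGME_821 moved TIMP1 from 0.52 to -0.02 and MMP19 from 0.08 to -0.10, and moved TIMP3 from -0.20 to -0.26.

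The GSGME mean was above the control mean for 6 of the 9 genes and below it for 3 with all cows, and above it for 4 and below it for 5 without Liver_GSGME_821. The median of the 9 differences was 0.08, and that of all transcripts was -0.02. The criterion of the study was a fold change beyond 1.3 with an unadjusted p under 0.05. In limma it was passed by 0 of the 9 genes and by 1.83% of all 26773 transcripts, of which 322 were higher and 167 lower. Cyclic loess scaling changed these counts to 375 and 112. By p alone, without adjustment, limma gave 0 of the 9 genes and 1567 transcripts under 0.05, and the methods' t-test gave 0 and 1530. No transcript was left under 0.05 by either test once the p-values were adjusted by the Benjamini-Hochberg procedure. Groups that did not overlap were found for 0 of the 9 genes and for 0.217% of transcripts. Without the array of Liver_control_825 the differences were 0.49 for TIMP1, 0.01 for TIMP2, -0.21 for TIMP3, -0.08 for TIMP4, 0.08 for MMP2, -0.02 for MMP9, 0.25 for MMP14, 0.08 for MMP15 and 0.09 for MMP19, all with the sign they had with it.

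How far a single animal lay from its group was described by the gap between it and the nearest other cow, divided by the range of the 6 cows, set against the 95% critical value of Dixon's ratio for 6 samples. For the 9 genes that value was passed in 0 control groups and in 1 GSGME group, that of TIMP1 at 0.82. Over all transcripts it was passed in 6.61% of control groups and 6.69% of GSGME groups. The GSGME groups of MMP19 (0.60) and MMP14 (0.56), each with Liver_GSGME_821 on top, and the control group of MMP9 (0.61), with Liver_control_819 at the bottom, came next. On the linear signal scale MMP14 (0.652) and MMP19 (0.711) passed as well, beside TIMP1 (0.945).

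**Figure D3:**
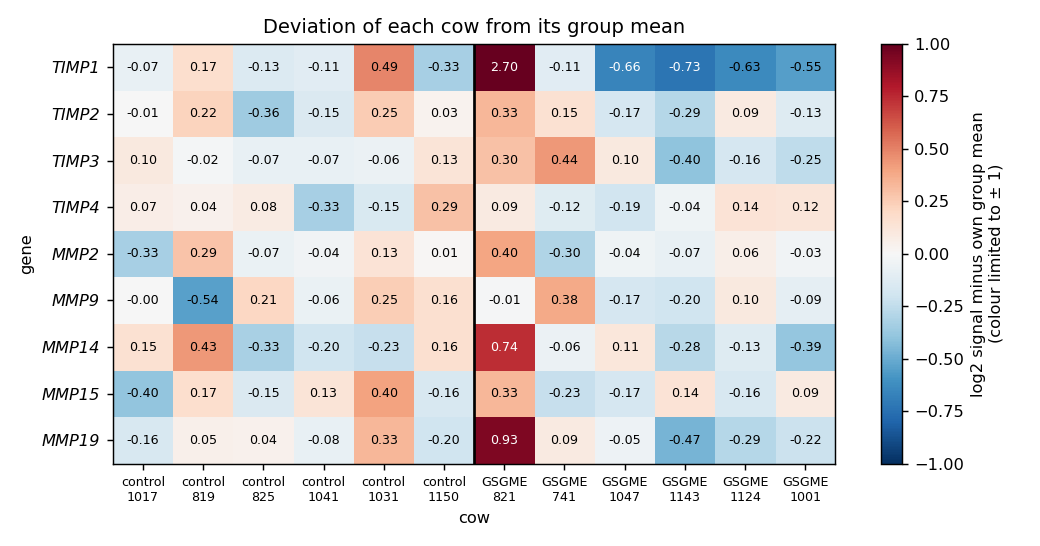
Deviation of each cow from the mean of its own group, in log2 signal (colour, limited to 1 either way), for the 9 genes (rows) in the 12 cows (columns). The column of Liver_GSGME_821 is above its group mean for 8 genes, most for TIMP1, MMP19 and MMP14, and Liver_control_1031 stands out for TIMP1 among the control cows.

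Liver_control_1031 was the second highest of the 12 for TIMP1, TIMP2, MMP9, MMP15 and MMP19, and Liver_control_819 for MMP2 and MMP14. Several of the 9 genes thus followed each other over the cows. After each group's mean was subtracted, TIMP1 and MMP19 had a Pearson correlation of 0.94 over the 12 cows, and of 0.84 over the 11 cows without Liver_GSGME_821. MMP2 and MMP15 had 0.76 and 0.69, and TIMP1 and TIMP2 had 0.64 and 0.68. Other pairs rested on Liver_GSGME_821. TIMP1 and MMP14 had 0.70 with it and -0.01 without it, and TIMP1 and MMP2 had 0.62 and 0.07. MMP14 and MMP19 fell from 0.62 to -0.01. MMP14 and MMP2, the activating protease and its substrate, had 0.53 and 0.13. MMP14 and TIMP2 held more of theirs, with 0.65 and 0.47. These values describe 12 arrays that share their tissue and their normalization.

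Among 18456 other transcripts with 1 symbol, the 3 most like each gene over the 12 cows were found in the same way. For TIMP1 they were SPP1 (r = 0.97), which encodes the secreted phosphoprotein osteopontin, the chemokine receptor gene CCR1 (0.96), and CTSS (0.95), the gene of the lysosomal protease cathepsin S. SPP1 stood at 9.82 in Liver_GSGME_821 and between 4.02 and 5.28 in the other 11 cows. Without Liver_GSGME_821 its correlation with TIMP1 was 0.53 and it ranked at 1409, whereas CTSS kept 0.82 (rank 94) and CCR1 kept 0.76 (rank 220). Spearman's rho was 0.74 for SPP1, 0.83 for CCR1 and 0.89 for CTSS. With the pair of animals farthest from the TIMP1 median, Liver_control_1031 and Liver_GSGME_821, left out, r was 0.67, 0.72 and 0.74.

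The genes most like MMP19 were TIMP1 itself, RNASET2 (r = 0.94, and 0.81 without Liver_GSGME_821), a secreted ribonuclease gene, and LHFPL2 (0.94 and 0.78). For MMP14 they were TASL (0.95 and 0.91), an adaptor of endosomal Toll-like receptors, ARAP2 (0.95 and 0.93) and the interleukin 7 receptor gene IL7R (0.94 and 0.89). IL7R was 7.60 in Liver_GSGME_821 and 5.26 to 6.60 in the other cows. The MMP2 neighbours were CCL5 (0.95 and 0.94), a T cell chemokine, SBSPON (0.92 and 0.87) and SPATA45 (0.90 and 0.84), the last at a mean of 3.23, which is within the olfactory receptor range.

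TIMP2 was followed closely by SLC9A9 (r = 0.96, and 0.95 without Liver_GSGME_821), an endosomal sodium and proton exchanger, by PTPRJ (0.93 and 0.92), a receptor tyrosine phosphatase, and by AOAH, an enzyme that inactivates bacterial lipopolysaccharide, at r = 0.94 with Liver_GSGME_821. TIMP3 was most like CYBRD1 (0.92 and 0.91), a ferric reductase, ADGRE5 (0.89 and 0.89), the leukocyte antigen CD97, and NIBAN1 (0.88 and 0.85). For TIMP4 the nearest were ADGRL1 (0.87 and 0.86), IZUMO4 (0.84 and 0.85) and TNFRSF8 (0.83 and 0.86). For MMP9 they were IKBKE (0.92 and 0.94), a kinase of innate immune signalling, PCBP4 (0.91 and 0.91) and GNAS (0.90 and 0.90). MMP15 was most like PTP4A3 (0.92 and 0.90), SLC23A1 (0.90 and 0.88), a vitamin C transporter, and ZNF704 (0.90 and 0.89). All neighbours were picked for their high correlation over the same 12 cows, so high values over 11 of these cows are largely set by that choice. The neighbours of TIMP2, TIMP3, TIMP4, MMP9, MMP14 and MMP15 had correlations of about 0.85 or more without Liver_GSGME_821. Those of MMP2 had 0.84 to 0.94 and those of MMP19 0.78 to 0.84. Those of TIMP1 fell to between 0.53 and 0.82. For TIMP3, TIMP4, MMP9 and MMP15, however, Liver_GSGME_821 was not in the pair of animals farthest from the median after subtraction of group means. With each gene's own pair left out, r was 0.81, 0.94 and 0.89 for the TIMP3 neighbours, in the order given. It was 0.72, 0.69 and 0.88 for TIMP4, 0.80, 0.78 and 0.74 for MMP9, and 0.91, 0.83 and 0.82 for MMP15.

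The rest of the matrix protease system was read from 7 lists with 128 measured genes. With GSGME 1 gene was higher and 1 was lower at the criterion, a share near the 1.83% of all transcripts. Of the 128 genes, 3 passed the p threshold before adjustment with limma (4 with the methods' t-test), and 0 passed after adjustment, the lowest adjusted p in limma being 0.830. The median difference was -0.00, close to that of all transcripts. The higher gene was CST3, which encodes cystatin C, a secreted inhibitor of cathepsins. Its log2 signal ran from 7.26 to 8.11 in control cows and from 7.95 to 8.97 in GSGME cows, with means of 7.78 ± 0.30 and 8.41 ± 0.39 (SD, n = 6 each), and the difference of 0.63 (SE 0.18) had an adjusted p of 0.830 in limma, 0.480 to 0.981 over the alternatives. It passed the criterion in each alternative and with each cow left out. The lower gene was SOCS3, a feedback inhibitor of cytokine signalling through STAT3. Its signal ran from 6.56 to 8.14 in control cows and from 6.64 to 6.90 in GSGME cows. The means of 7.36 ± 0.56 and 6.82 ± 0.10 (SD, n = 6 each) differed by -0.54 (SE 0.21, limma adjusted p = 0.830, 0.480 to 0.981 over the alternatives), and it did not pass without Liver_control_1031.

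Among the other matrix metalloproteinases, 14 of 18 listed genes were measured, and 0 were higher and 0 lower. The lowest p-values were those of MMP8 (difference -0.10), the neutrophil collagenase, MMP1 (-0.08), the interstitial collagenase, and MMP13 (-0.07), the collagenase of cartilage and bone. MMP8 and MMP13 had means of 3.85 and 3.46, within the olfactory receptor range, and MMP1 had 7.60. Only 4 of these 14 genes had means above the median transcript. Liver_GSGME_821 was highest for 0 of the 14, and for 4 of the 5 metalloproteinases described above, which were chosen with their values in view. Over all transcripts this cow was alone the highest in 6.50%, and nothing is read from these counts. The MMP7 signal of Liver_GSGME_821, from the matrilysin that epithelial cells make, was 5.70, which is 0.83 below the mean of the other 5 GSGME cows.

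The ADAM proteases, which shed receptors and cytokines from the cell surface, gave 0 of 9 measured genes past the criterion. ADAM17, the TNF convertase that TIMP3 inhibits, differed by 0.17, ADAM15 by -0.12 and ADAM23, dim at a mean of 3.66, by -0.10. Of 18 ADAMTS proteases, which cut proteoglycans and process procollagen, 0 passed, with ADAMTS15 at -0.15, ADAMTS17 at -0.15 and ADAMTS12 at -0.14. Among 11 genes of the plasmin system and the proprotein convertases, which activate protease zymogens, 0 passed. SERPINB2, an inhibitor of plasminogen activators, differed by 0.23 at a dim mean of 3.70, the convertase PCSK6 by 0.17 and FURIN, the convertase that activates MMP14, by -0.11.

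Of 22 other regulators of matrix proteases, CST3 was the single gene past the criterion. The procollagen proteinase enhancers PCOLCE2 and PCOLCE differed by 0.17 and -0.11. Of the 29 matrix substrates 0 passed, with a median difference of 0.04. DCN, the proteoglycan decorin, differed by 0.23, the laminin chain gene LAMA4 by 0.20 and VTN, vitronectin, by 0.11. Of 25 cytokines and transcription factors known to act on TIMP and MMP genes, SOCS3 alone passed. TNF differed by 0.27 (limma adjusted p = 0.830) and stayed under the fold threshold, and IL6ST, the shared receptor chain of the interleukin 6 family, differed by -0.21.

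Liver_GSGME_821 was highest for a larger share of the matrix substrates than of any other of the 7 lists. It was the highest of all 12 cows for 18 of the 29 matrix substrates (62.1%), against 6.50% of all transcripts. Any other single cow was highest for at most 2 of the 29. Liver_GSGME_821 was above the mean of the other 5 GSGME cows for 27. Among the 25 substrates above the median transcript it led 16, a restriction chosen after seeing the data. The lists were fixed with earlier results of these data known, so nothing is read from these counts. COL3A1, the type III collagen gene, was 9.01 in Liver_GSGME_821, while the control cows ran from 6.86 to 7.38, and it exceeded the mean of the other 5 GSGME cows by 2.01. The type I collagen genes COL1A2 and COL1A1 exceeded it by 1.81 and 1.58, at 7.80 and 8.38. TNC, the gene of tenascin C, exceeded it by 1.05, LUM, lumican, by 0.99 and DCN by 0.84. Other substrates differed less in Liver_GSGME_821. COL18A1 was 0.03, NID1 0.15, LAMC1 0.16 and BGN 0.19 above the mean of the other 5 GSGME cows. FN1, fibronectin, differed by -0.07 and VTN by -0.04.

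In the other lists Liver_GSGME_821 was highest for 6 of 22 regulators, 2 of 9 ADAM, 2 of 18 ADAMTS, 2 of 11 plasmin and convertase genes and 4 of 25 cytokines and transcription factors. Over all transcripts it was alone the highest in 6.50%, and nothing is read from these counts. Liver_control_825 was highest for 9 of the 18 ADAMTS genes. SPARC, a collagen-binding protein of the matrix, was 11.55 in Liver_GSGME_821 and 1.39 above the other 5. LOXL2, a collagen cross-linking enzyme, was 0.88 above, PLAU, urokinase, 0.66 above and CTSK, the collagen-cutting cathepsin K, 0.60 above. TGFB1, a cytokine that raises collagen and TIMP1 synthesis, was 0.82 above, and the transcription factor RUNX1 0.94 above. The immediate early gene EGR1 was 0.82 below. PCSK5 differed from the mean of the other 5 GSGME cows by -0.57, SPOCK1 by -0.41, TGFB2 by -0.39 and BSG by -0.29. Liver_GSGME_821 was above that mean for 15 of 22 regulators and 5 of 11 plasmin and convertase genes. For the cytokines and transcription factors it was above it for 19 of 25. A2M, the broad protease inhibitor of plasma, was 0.73 above but had its highest signal, 13.14, in Liver_control_1031.

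Of all transcripts, 0.575% were at least 1 log2 unit higher in Liver_GSGME_821 than the mean of the other 5 GSGME cows, and TIMP1, MMP19 and 4 matrix substrates were among them. The largest such difference of a transcript with 1 symbol was that of SPP1, 5.53 (46.3-fold), and TIMP1 came second. They were followed by BRB, a ribonuclease gene, at 3.22, the imprinted non-coding RNA H19 at 2.15 and COL3A1. SAA3, a serum amyloid A gene, was 2.00 higher, but at 11.37 it was only just above the highest of the other cows, 11.19. MDK, midkine, LGALS3, galectin 3, and VCAN, the proteoglycan versican, were 1.90, 1.85 and 1.85 higher. GABRR2, a receptor subunit gene for the transmitter GABA, was also 1.85 higher, but its 6.29 lay below the highest of the other cows, 7.47.

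**Figure D4:**
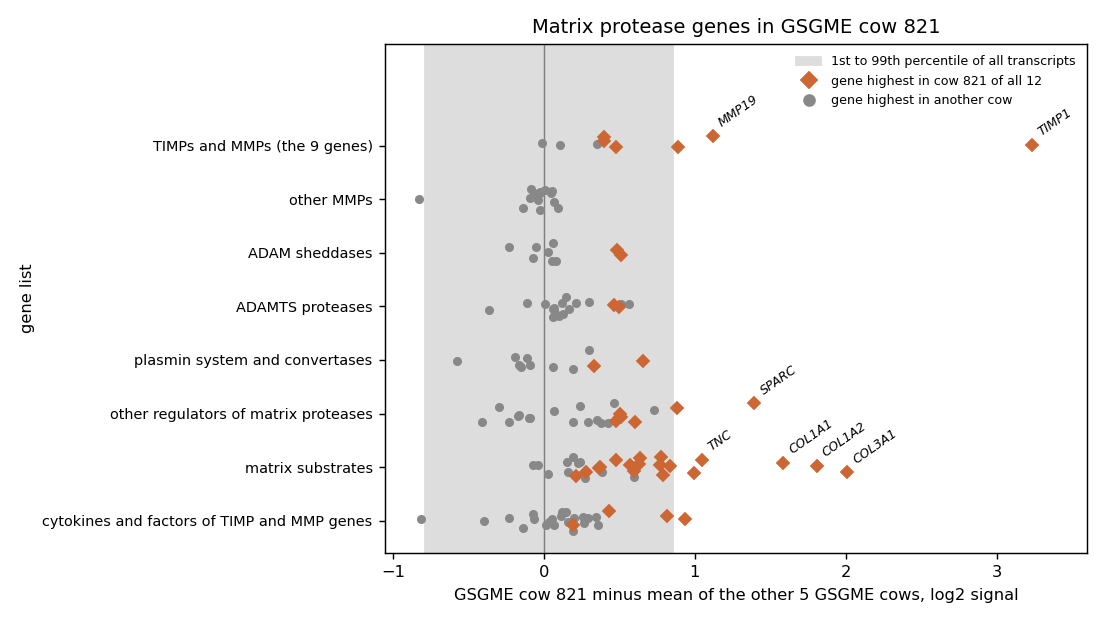
Log2 signal of Liver_GSGME_821 minus the mean of the other 5 GSGME cows, with 1 point per gene and 1 row per gene list, diamonds for genes in which Liver_GSGME_821 was the highest of 12, and a grey band from the 1st to the 99th percentile of all transcripts (-0.78 to 0.86). TIMP1 (3.24), MMP19 (1.12) and MMP14 (0.89) lie right of the band with SPARC (1.39) and the collagen genes COL3A1 (2.01), COL1A2 (1.81) and COL1A1 (1.58), and none of the other MMPs does.

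Marker lists of several cell types other than hepatocytes also averaged highest in Liver_GSGME_821. Those of neutrophils and red blood cells did not, and that of bile duct cells did so only with SPP1. Over all transcripts Liver_GSGME_821 was alone the highest in 6.50%, and nothing is read from the counts of marker genes it led. The stellate cell and fibroblast list (15 of 17 genes measured) averaged 6.76 to 7.11 in control cows and 6.75 to 7.60 in GSGME cows. Liver_GSGME_821 was highest in 8 genes, but the list shares COL1A1, COL1A2, COL3A1, DCN, LUM and BGN with the substrates. Of the genes not shared, PDGFRB was 0.53, RGS5 0.47, TAGLN 0.43, THY1 0.40 and PDGFRA 0.38 above the mean of the other 5 GSGME cows. The differences of NGFR, DES, LRAT and HAND2 were 0.14, 0.08, 0.04 and -0.004. The Kupffer cell and macrophage list (14 of 15) averaged 8.36 to 9.03 and 8.53 to 9.19, and Liver_GSGME_821 was highest in 7 genes. Among them CD68, a lysosomal protein of macrophages, was 11.00, which is 1.26 above the mean of the other 5 GSGME cows and the widest such difference in the list. It was above that mean for 12 of the 14 markers, with MARCO at 0.08 above, and below it for CLEC4F (-0.02) and CD14 (-0.47). The endothelial list (14 of 15) averaged 8.02 to 8.25 and 7.95 to 8.47, again with Liver_GSGME_821 on top. Liver_GSGME_741 was also above every control cow on this list (8.36) and on the macrophage list (9.09). In single genes Liver_GSGME_741 was highest for 6 of the 14 endothelial markers and Liver_GSGME_821 for 5. T and NK cell markers (13 of 13) averaged 5.59 to 5.88 and 5.75 to 6.17, with Liver_GSGME_821 highest. This cow was above the mean of the other 5 GSGME cows for 11 of the 13, and below it for GZMB (-0.68) and GZMA (-0.04). In that list CD96 and CD3D, 2 of the 13, were higher with GSGME at the criterion in limma, which 1.83% of all transcripts passed. They differed by 0.46 and 0.43 (both limma adjusted p = 0.830), and CD3D did not pass without Liver_GSGME_821. The list was fixed with earlier results of these data known, so nothing is read from the 2 genes. The part of these markers in the TIMP and MMP values was not tested.

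The neutrophil list (15 of 18 measured, 6 of them above the median transcript), which covers the cells known to store MMP9, averaged 5.29 to 6.02 in control cows and 5.41 to 5.82 in GSGME cows. It was highest in Liver_control_1031, which was second for MMP9, and Liver_GSGME_741, first for MMP9, was the highest of the GSGME cows at 5.82. Liver_GSGME_821 was almost level with it at 5.81, although its MMP9 signal of 5.49 was below the GSGME mean. Over the 15 markers, the median difference of Liver_GSGME_821 from the mean of the other 5 GSGME cows was 0.13, and 11 were above that mean. LTF, lactoferrin, was 1.16 and S100A12 was 0.98 above it, but S100A12 had its highest signal, 8.42, in Liver_control_1031. S100A9 was 0.13, S100A8 0.09 and MPO 0.02 above it, while MMP8 was 0.09 and ELANE 0.04 below it. The bile duct list (8 of 10) averaged 6.78 to 7.01 and 6.62 to 7.48, with Liver_GSGME_821 highest, but without SPP1 Liver_GSGME_821 stood at 7.15, inside the control range of 7.03 to 7.43. Red blood cell markers (8 of 10) averaged 4.97 to 5.24 and 4.88 to 5.62, with Liver_GSGME_741, the highest cow for TIMP3 and MMP9, on top. Liver_GSGME_821 was highest for 0 of the 16 hepatocyte markers and above the mean of the other 5 GSGME cows for 1. Its hepatocyte list mean of 12.47 was the lowest of the GSGME group, inside the control range of 12.40 to 12.56.

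**Figure D5:**
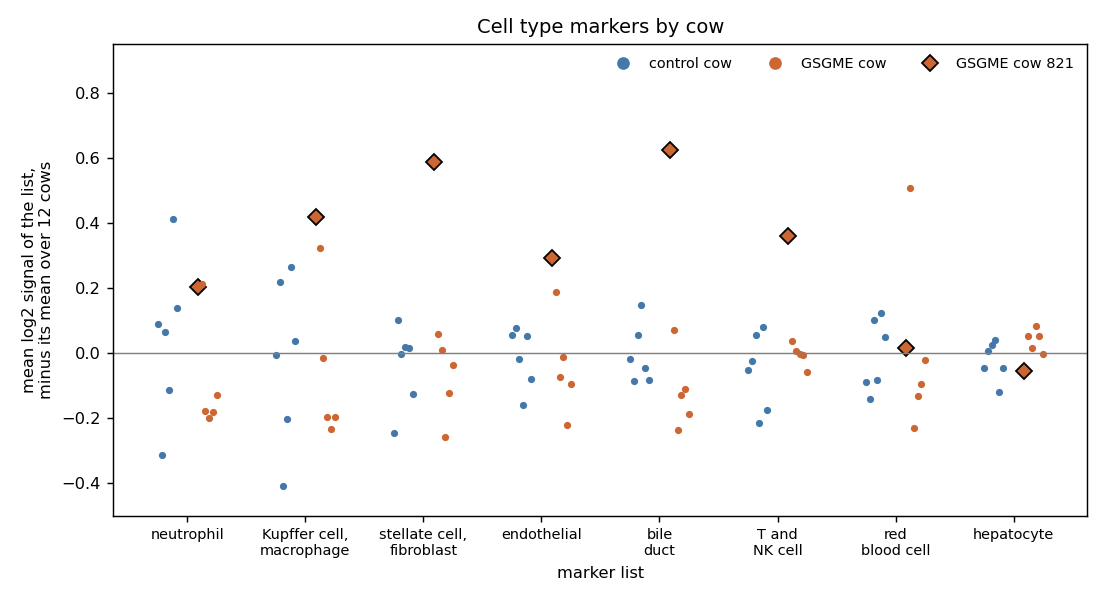
Mean log2 signal of 8 cell type marker lists (x axis) in each cow, as the difference from the mean of the 12 cows (y axis), with control and GSGME cows as points and Liver_GSGME_821 as a diamond. Liver_GSGME_821 is the highest of the 12 for the macrophage, stellate cell, endothelial, bile duct and T and NK cell lists. It lies among the other cows for red blood cell markers. For hepatocyte markers it is the lowest of the GSGME cows, inside the control range.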

How the data were processed

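The authors ran RMA (background adjustment, scaling across arrays and a robust summary of the probes of each transcript) in Affymetrix Expression Console, and its version is not given in the sources used here. What the authors deposited is 1 column of log2 signals per cow, with 2 decimals, in a table where 0 columns belonged to no sample. RMA scales arrays to a common distribution, so a shift shared by all transcripts cannot be seen. The number of arrays limits the precision. Transcripts were named from the platform annotation. No genome coordinates or sequences were used, since the genome build behind that annotation was not known.

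Groups came from the sample titles, which give no batch, slide or scan date. Differences are GSGME minus control means. All 26773 transcripts were fitted with limma 3.58.1 under R 4.3.3 (two-sided moderated test, Benjamini-Hochberg adjustment), and this step was tested on simulated data. Figures and counts were made in Python 3.11.15 (pandas 2.3.3, scipy 1.17.1, numpy 2.4.6, matplotlib 3.10.9). The genes, lists and alternatives were chosen with earlier results of these data known. Named were the 9 genes, the list genes past the criterion (or up to 3 per list by lowest p) and the 3 transcripts most correlated with each of the 9 genes after subtraction of group means. Genes named for their signal in Liver_GSGME_821, further marker genes and MMP7 were chosen after their values were seen. So were 3 alternatives, namely correlations without Liver_GSGME_821, list genes above the median transcript only, and each difference beside its value without Liver_GSGME_821. The other alternatives were the methods' t-test (unpaired, equal variance), eBayes with trend and robust, cyclic loess, array weights, no fold threshold, only transcripts above the median transcript, group medians, linear signals, the other TIMP2 transcript and leaving out each cow in turn.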

Additional observations from a re-analysis of the deposited data

Results flagged for a closer look

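In groups of 6 cows, the gap between the highest or lowest cow and its nearest neighbour, divided by the group's range, was compared with the 95% critical value of Dixon's ratio, which chance alone passes in about 1 group in 20. On these arrays 6.61% of control groups and 6.69% of GSGME groups passed it over all transcripts. It was passed by 6 of the 76 groups looked at, but 18 of the 76 belong to the 9 genes, which were chosen with such animals in view, so nothing is read from the count. TIMP1 in GSGME cows had 0.819, with Liver_GSGME_821 at 10.39 and the next cow at 7.58. LAMA4 in GSGME cows had 0.691, with Liver_GSGME_821 at 7.87. Of the list genes, only the 21 named by the criterion or by lowest p were among the 76 groups. Outside them COL1A2 (0.849), COL1A1 (0.847), COL6A3 (0.722), TGFB1 (0.707) and COL3A1 (0.660) also passed in GSGME cows, each with Liver_GSGME_821 highest. LUM (0.493) and TNC (0.451) did not pass. These genes were chosen after their values were seen. The mean of the stellate cell and fibroblast markers in GSGME cows had 0.6253, just past the critical value, the mean of the bile duct markers 0.642 and the mean of the T and NK cell markers 0.769, each with Liver_GSGME_821 highest. The bile duct value became 0.455 without SPP1, with Liver_GSGME_741 highest. The mean of the red blood cell markers in GSGME cows had 0.668, with Liver_GSGME_741 highest.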

How the results depend on the processing

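No paired analysis was possible because the groups share no cow number. Of 127 alternative values of the 9 gene differences, only that of the dim TIMP2 transcript, -0.29, moved by more than the pooled SD of the gene. For TIMP1 that SD, 0.97, itself holds the spread that Liver_GSGME_821 adds, so the count does not show stability, and without that cow TIMP1 went from 0.52 to -0.02 and MMP19 changed sign. With each cow left out the differences ranged from -0.02 to 0.67 for TIMP1, 0.16 to 0.40 for MMP14, -0.10 to 0.18 for MMP19, 0.01 to 0.14 for TIMP2, -0.28 to -0.12 for TIMP3, -0.16 to -0.04 for TIMP4, 0.01 to 0.15 for MMP2, -0.17 to -0.01 for MMP9 and 0.03 to 0.19 for MMP15. The number of the 9 genes past the criterion was 0 with all cows and 0 to 1 with each cow left out, the 1 being MMP14 without Liver_control_819. Of the 128 other genes, those higher numbered 1, 1 to 2 with each cow left out (2 without Liver_control_1150) and 2 when no fold was asked for. Those lower numbered 1, and 0 to 1 with each cow left out (0 without Liver_control_1031). Over all transcripts the 322 higher and 167 lower became 142 and 61 when only transcripts above the median transcript were tested, and 718 and 849 when no fold was asked for. The methods' t-test gave 109 lower. With each cow left out, 271 to 468 were higher and 139 to 289 lower, the 289 without Liver_control_819. The groups with a gap past the critical value numbered 1 of 18 on the log2 scale and 3 on the linear scale. The means of TIMP4 and MMP9 lay within the range of olfactory receptor signals, which limits what their differences can show.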
